A study of Homo sapiens with 10 samples.

Results

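The collagen genes encode the chains of the main structural proteins of the extracellular matrix. They were taken as the protein-coding genes of the human annotation (GENCODE, on GRCh37, also called hg19) whose symbol is COL, a type number, A and a chain number. This gave 44 genes of 20098 protein-coding genes on chromosomes 1 to 22 and X, of which 11 encode chains of fibril collagens, 6 chains of basement membrane collagen and 27 other collagens. The data came from MDAMB231, an established human breast cancer line that lacks the estrogen receptor, grown without treatment in DMEM with 5% FBS. Antibodies against H3K4me3, H3K27Ac and H3K4me1 were used for chromatin immunoprecipitation, and FAIRE, which recovers DNA free of nucleosomes, was done on crosslinked chromatin. Each of the 4 assays had 2 samples, which the authors combined into 1 list of peaks, so no peak has a replicate error. It is 1 cell line in culture, without the fibroblasts that make most of the collagen of a tissue.

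H3K4me3 and H3K27Ac are usual marks of promoters in use, H3K27Ac also marks active enhancers, and H3K4me1 is found at enhancers whether active or poised. Fibril collagens such as type I give connective tissue its strength and are made mainly by fibroblasts and bone cells. Type IV collagen forms the network of basement membranes and is made by epithelial, endothelial and other cells that rest on them. The remaining collagens link, anchor or decorate these structures, or cross the cell membrane. RNA was not used here, so the values below describe chromatin and not expression.

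Cell type markers were looked at first. A promoter was any annotated start site widened by 1 kb on each side, and a gene had a promoter peak when a peak shared at least 1 base with it. The MACS score is minus 10 times the log10 of the p-value of a peak, and it runs into a ceiling near 3100, so that peaks at that score cannot be ranked. FAIRE peaks carry a height in place of a score. At the promoters of VIM, CD44, CAV1 and AXL, which mark mesenchymal-like breast cancer lines, all 4 lists had a peak. Peaks in all 4 lists were present at 13.1% of all genes. The estrogen receptor gene ESR1 had H3K4me3 (score 1258) without H3K27Ac, FAIRE or H3K4me1. The epithelial cadherin gene CDH1 had no H3K4me3 peak, but an H3K27Ac peak scored 538 and a FAIRE peak was 31.7 high. Of the 6 luminal epithelial markers, 5 had a promoter H3K4me3 peak, 4 an H3K27Ac peak, 4 a FAIRE peak and 1 an H3K4me1 peak. The shares of all genes were 67.3%, 63.5%, 39.3% and 20%. The luminal gene EPCAM had peaks in all 4 lists, as the mesenchymal-like markers did, with H3K4me3 at 3100 and H3K27Ac at 1255. KRT18, another luminal gene, had peaks in all lists but H3K4me1. The fibroblast genes DCN and LUM had no promoter peak in any list, while PDGFRA had peaks in all 4, with an H3K4me3 score of 315. The leukocyte genes PTPRC and CD3E had no promoter peak.

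The 6 type IV genes lie as 3 head-to-head pairs, and each pair is transcribed outward from a short shared stretch. The main starts, those of the Ensembl canonical transcripts, were 127 bp apart for COL4A1 and COL4A2, 419 bp for COL4A3 and COL4A4 and 1416 bp for COL4A5 and COL4A6. The stretches between the nearest facing starts are shown because all type IV promoter peaks that the members of a pair share lie over them. They are given on the plus strand of GRCh37, at chr13:110959475-110959634, chr2:228029140-228029369 and chrX:107682748-107683047, and reach at most 30 bases past these facing starts. The COL4A1/COL4A2 stretch also lies in an intron of a longer COL4A2 transcript that starts on its other side, and for COL4A5 and COL4A6 the central 300 bases are given. Capitals mark the GC box (GGGCGG or CCGCCC), the CCAAT box (CCAAT or ATTGG) and the TATA box (TATAAA or TTTATA).
COL4A1/COL4A2: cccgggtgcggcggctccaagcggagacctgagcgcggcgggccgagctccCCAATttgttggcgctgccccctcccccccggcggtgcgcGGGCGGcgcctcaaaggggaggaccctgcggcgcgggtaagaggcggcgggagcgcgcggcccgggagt
COL4A3/COL4A4: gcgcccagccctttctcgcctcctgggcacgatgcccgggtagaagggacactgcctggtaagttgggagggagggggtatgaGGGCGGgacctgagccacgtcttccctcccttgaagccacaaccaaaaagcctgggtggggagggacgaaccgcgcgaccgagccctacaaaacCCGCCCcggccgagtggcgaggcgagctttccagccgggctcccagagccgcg
COL4A5/COL4A6: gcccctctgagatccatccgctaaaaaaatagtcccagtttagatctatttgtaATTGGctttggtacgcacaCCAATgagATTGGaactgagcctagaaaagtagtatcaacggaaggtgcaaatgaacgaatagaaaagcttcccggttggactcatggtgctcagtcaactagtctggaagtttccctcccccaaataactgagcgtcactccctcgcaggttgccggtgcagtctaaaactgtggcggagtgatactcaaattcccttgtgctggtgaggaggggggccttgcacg

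The COL4A1/COL4A2 stretch is 78.8% G and C and holds 1 GC box and 1 CCAAT box. The COL4A3/COL4A4 stretch holds 2 GC boxes, and the COL4A5/COL4A6 stretch, with 49% G and C, holds 3 CCAAT boxes. The 300 bases from 250 before to 50 after the main start were searched in the same way at every protein-coding gene. There, 61.0% of promoters held a GC box, 35.9% a CCAAT box and 9.82% a TATA box. Matches were counted on both strands, and a GC box and a CCAAT box can share bases. A match is a run of letters and does not show that a factor was bound.

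Beside the type IV pairs, the promoters of 2 fibril collagen genes are shown as examples, from 250 bases before to 30 bases from the main start, on the strand of the gene. COL5A1 (chr9:137533399-137533678, plus strand) had promoter peaks over the start, and COL1A2 (chr7:94023957-94024236, plus strand) had none there. The capitals are as above.
COL5A1: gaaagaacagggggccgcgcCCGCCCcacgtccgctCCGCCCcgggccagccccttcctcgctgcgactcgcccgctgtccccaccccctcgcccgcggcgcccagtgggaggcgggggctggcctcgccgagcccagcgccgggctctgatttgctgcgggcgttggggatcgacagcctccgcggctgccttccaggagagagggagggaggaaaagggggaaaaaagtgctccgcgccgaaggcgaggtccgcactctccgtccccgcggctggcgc
COL1A2: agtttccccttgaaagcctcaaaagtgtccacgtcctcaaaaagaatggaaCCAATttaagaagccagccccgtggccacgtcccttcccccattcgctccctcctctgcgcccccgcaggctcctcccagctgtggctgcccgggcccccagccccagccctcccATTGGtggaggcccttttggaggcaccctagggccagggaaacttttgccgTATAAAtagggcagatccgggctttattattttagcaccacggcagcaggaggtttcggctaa

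COL1A2 held 2 CCAAT boxes and 1 TATA box in the printed window, and COL5A1 held 2 GC boxes. The GC content was 74.6% at COL5A1 and 58.6% at COL1A2. These 2 genes do not show how promoters with and without peaks differ.

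Of the 44 collagen genes, 23 had an H3K4me3 promoter peak, compared with 67.3% of all protein-coding genes. An H3K27Ac promoter peak was present at 22 (all genes, 63.5%) and a FAIRE promoter peak at 13 (all genes, 39.3%). For H3K4me1 the count was 13, where the share over all genes was 20%. H3K4me3, H3K27Ac and FAIRE were all present, at the same or at different starts of the gene, at 10 collagen genes (all genes, 36.5%). Within 1 kb of the main start all 3 were present at 7 collagen genes (all genes, 29.7%). No list had a promoter peak at 15 collagen genes, or 34.1%, and the share of all genes was 29.3%. The direction of this difference turned with the setting, since promoters of 2 kb on each side gave 27.3% of collagens and 27.8% of all genes, and the main start alone 47.7% and 33.5%. As shares, the collagen counts were 52.3% for H3K4me3, 50% for H3K27Ac, 29.5% for FAIRE and 29.5% for H3K4me1, so they lay below all genes for the first 3 lists and above for the last.

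By class, all 6 basement membrane genes had H3K4me3 and H3K27Ac, and 2 of them FAIRE and 2 H3K4me1. Of the 11 fibril genes, 5 had H3K4me3, 4 H3K27Ac, 2 FAIRE and 1 H3K4me1. Of the 27 other collagens, 12 had H3K4me3, 12 H3K27Ac, 9 FAIRE and 10 H3K4me1. Since the type IV genes share their promoters in pairs, their 6 genes rest on 3 peaks of each of H3K4me3 and H3K27Ac.

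**Figure D1:**
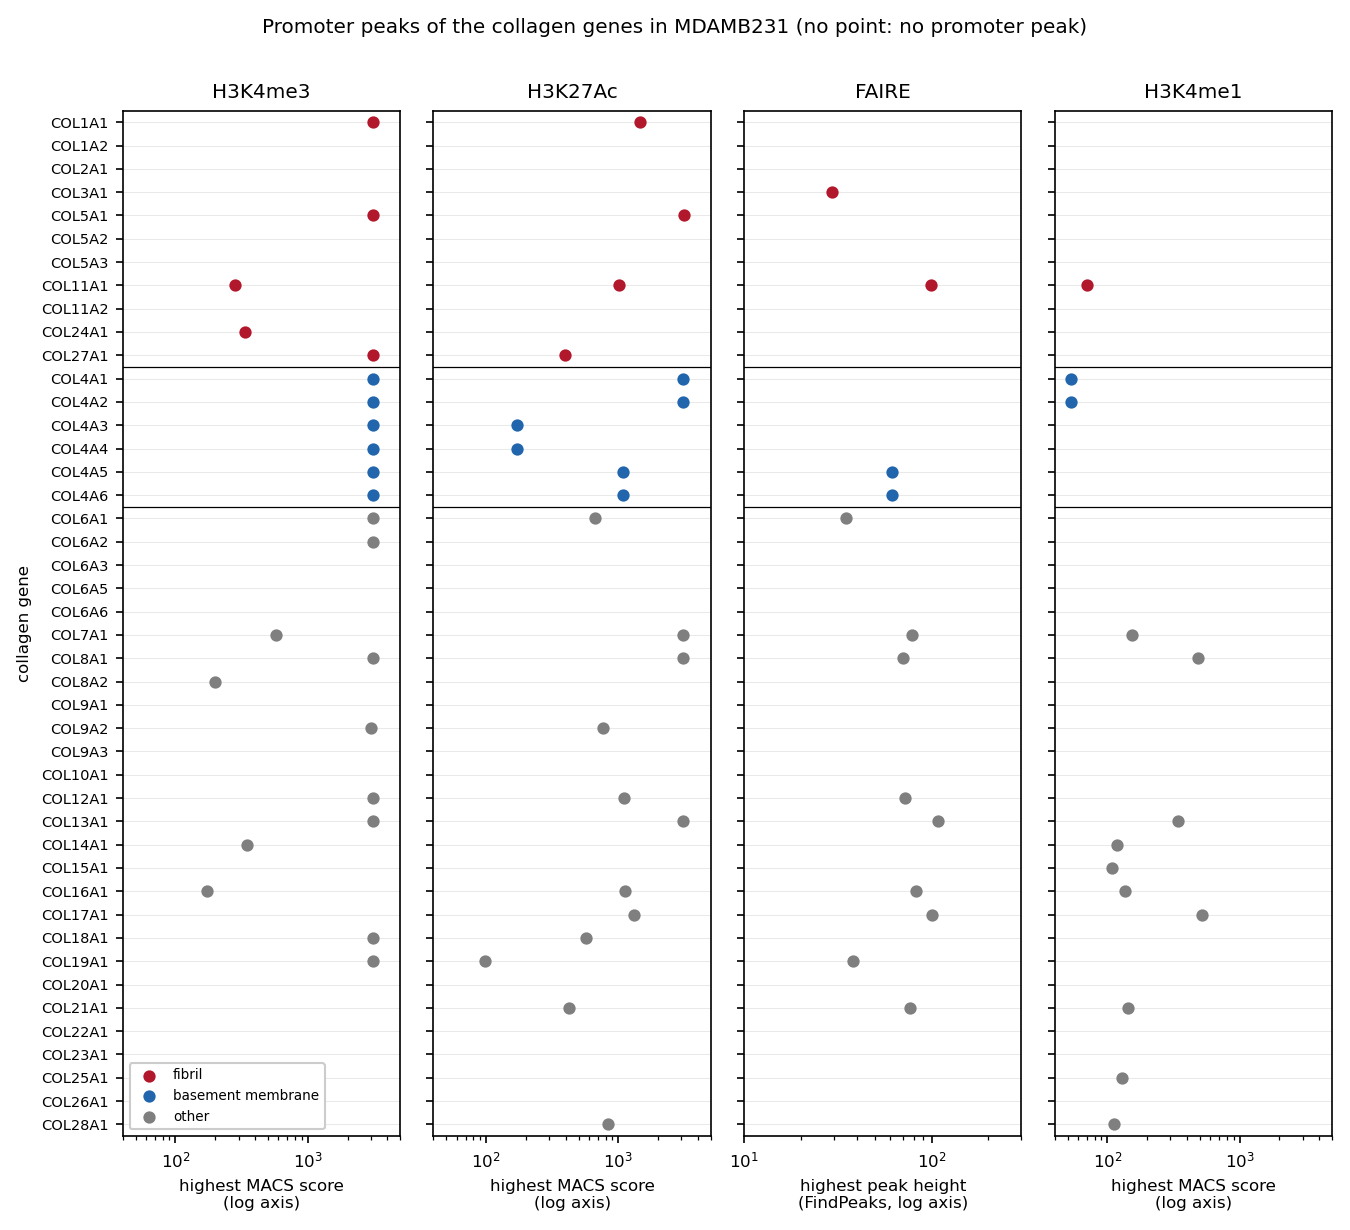
The highest promoter peak of each of the 44 collagen genes, as MACS score for H3K4me3, H3K27Ac and H3K4me1 and as peak height for FAIRE, on log axes; a gene without a point had no promoter peak in that list. All 6 basement membrane genes have a point at 3100 for H3K4me3, and 5 of the 11 fibril genes have any H3K4me3 point.

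**Figure D2:**
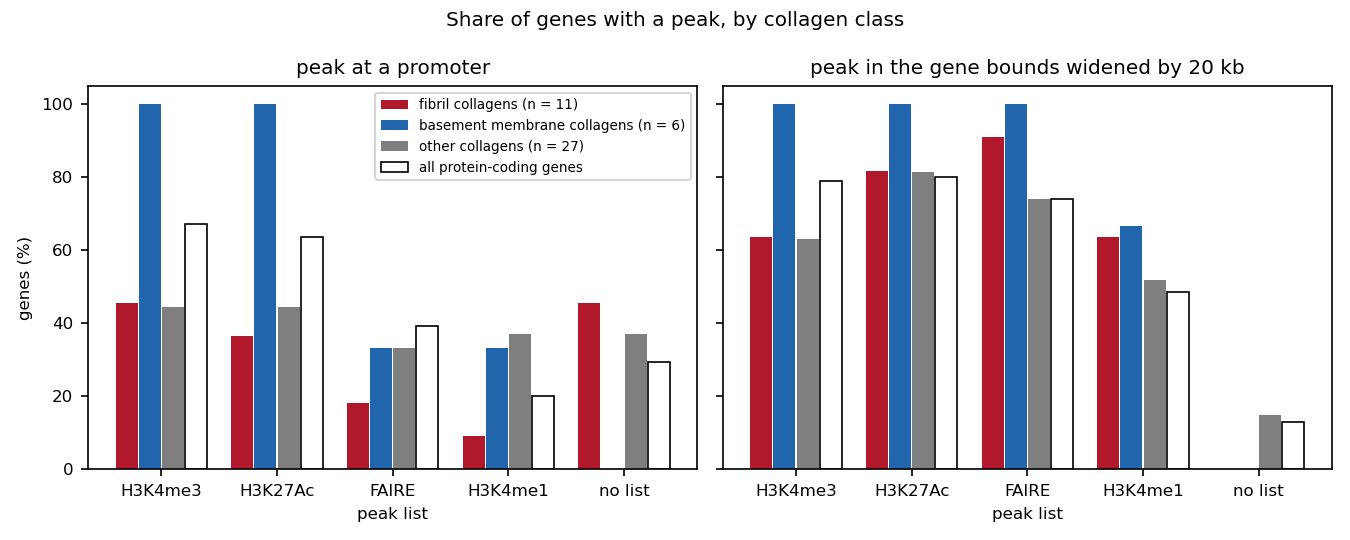
Share of genes with a peak at a promoter (left) and in the gene bounds widened by 20 kb (right), for 11 fibril, 6 basement membrane and 27 other collagen genes and for all 20098 protein-coding genes; a missing bar is a share of 0. The basement membrane bars reach 100% for H3K4me3 and H3K27Ac at promoters, where all genes are at 67.3% and 63.5%.

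Of the 20 distinct H3K4me3 peaks at collagen promoters, 13 were at 3100 or above. Their median width was 3022 bp, against 2828 bp for all H3K4me3 peaks at promoters. The 22 distinct H3K27Ac peaks had a median score of 1110, where all promoter H3K27Ac peaks had 1120. For FAIRE the 14 peaks had a median height of 70.9, against 63.7 for all promoter FAIRE peaks. The 15 H3K4me1 peaks had a median score of 128, against 106 for all promoter H3K4me1 peaks. For H3K4me3 both medians were at the ceiling of 3100, where no difference could show.

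COL4A1 and COL4A2 encode the chains found in nearly every basement membrane. One H3K4me3 peak (chr13:110958240-110961827, score 3100) and one H3K27Ac peak (chr13:110958171-110962087, score 3100) covered both of their main starts. An H3K4me1 peak at chr13:110956224-110959647 also reached both, with a score of 53.5, close to the lowest score of 50.01 in that list. No FAIRE peak lay at this promoter, and the nearest was 12481 bp from the start of COL4A1, inside an intron of COL4A2. This pair therefore had both promoter marks at the ceiling of the score without a called FAIRE peak.

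COL4A3 and COL4A4, whose chains belong to specialised membranes such as that of the kidney glomerulus, shared an H3K4me3 peak of score 3100 (chr2:228027704-228030435). Their shared H3K27Ac peak (chr2:228027989-228030125) scored 170. Neither FAIRE nor H3K4me1 had a peak there. At COL4A5 and COL4A6, which lie on the X chromosome, the shared H3K4me3 peak (chrX:107681982-107684539) was again at 3100 and the H3K27Ac peak (chrX:107682025-107684411) at 1077. This pair alone among the type IV promoters had a FAIRE peak, at chrX:107682169-107683308 with a height of 61.3, where the median of the whole FAIRE list was 61.1. The order of the 3 pairs by H3K27Ac score was thus COL4A1/COL4A2, COL4A5/COL4A6 and COL4A3/COL4A4, with no replicate error to set beside it.

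The type IV genes also differed in their widened bounds, where the counts below include promoter peaks. In the gene bounds widened by 20 kb, COL4A2 had 11 H3K27Ac, 15 FAIRE and 8 H3K4me1 peaks, the most over the 4 lists of any collagen gene. Away from promoters it had 10, 15 and 7. Per 100 kb, COL7A1 had more H3K27Ac peaks than COL4A2 (7.02 and 4.45). COL8A1 had more FAIRE (6.48 and 6.06) and H3K4me1 peaks (5.98 and 3.23) per 100 kb than COL4A2. The tallest FAIRE peak of COL4A2 away from promoters, 120.5 high, lay in an intron 89.9 kb from the main start (chr13:111048817-111050206), within an H3K27Ac peak of score 3100 and an H3K4me1 peak of score 503 (chr13:111039566-111052188). COL4A1 had 5 H3K27Ac, 7 FAIRE and 4 H3K4me1 peaks in its widened bounds. An H3K27Ac peak in an intron of COL4A2 (chr13:110970560-110976725, score 2816) falls in the widened bounds of both genes. The H3K4me1 peak there (chr13:110969712-110977624, score 212) and the tallest FAIRE peak of COL4A1 (chr13:110972503-110973200, height 53.6) lay in the same intron. Beyond the far end of COL4A1, 176797 bp from its start, an H3K27Ac peak at chr13:110776950-110782707 was at 3100, with H3K4me1 at 183.

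COL4A6 had 4 H3K27Ac, 13 FAIRE and 3 H3K4me1 peaks in its widened bounds. The tallest of its distal FAIRE peaks was 95.2 high, in an intron at chrX:107429470-107431135, with H3K27Ac of score 320 and H3K4me1 of score 80.4. The highest H3K27Ac and H3K4me1 scores away from its promoter were 674 (chrX:107639013-107642754) and 224 (chrX:107639012-107643687), 40.8 kb and 40.3 kb into the gene. COL4A5, on the other side of the same promoter, had 4 FAIRE peaks, no H3K27Ac peak besides the shared one and no H3K4me1 peak. Its tallest distal FAIRE peak, beyond the end of the gene, was 42.0 high (chrX:107942218-107943044).

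COL4A3 and COL4A4 had few distal peaks. In COL4A3 a FAIRE peak of height 29.8 lay in an intron (chr2:228102467-228103562), and the H3K27Ac peak of score 1131 in its widened bounds (chr2:228189114-228191675) was at the promoter of MFF. The tallest FAIRE peak near COL4A4, 100.7 high at chr2:227860106-227862089, lay in an exon of the neighbouring gene RHBDD1, with H3K27Ac at 86.4 and H3K4me1 at 123. So distal peaks were most numerous at COL4A2, and COL4A6 had more than its partner COL4A5. With promoter peaks included, the widened bounds held 37 peaks at COL4A2, 19 at COL4A1, 21 at COL4A6 and 6 at COL4A5. Per 100 kb, COL4A1 had more H3K27Ac (2.52 and 1.23) and H3K4me1 peaks (2.02 and 0.926) than COL4A6. FAIRE peaks per 100 kb were fewer at COL4A1 than at COL4A6 (3.53 and 4.01).

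**Figure D3:**
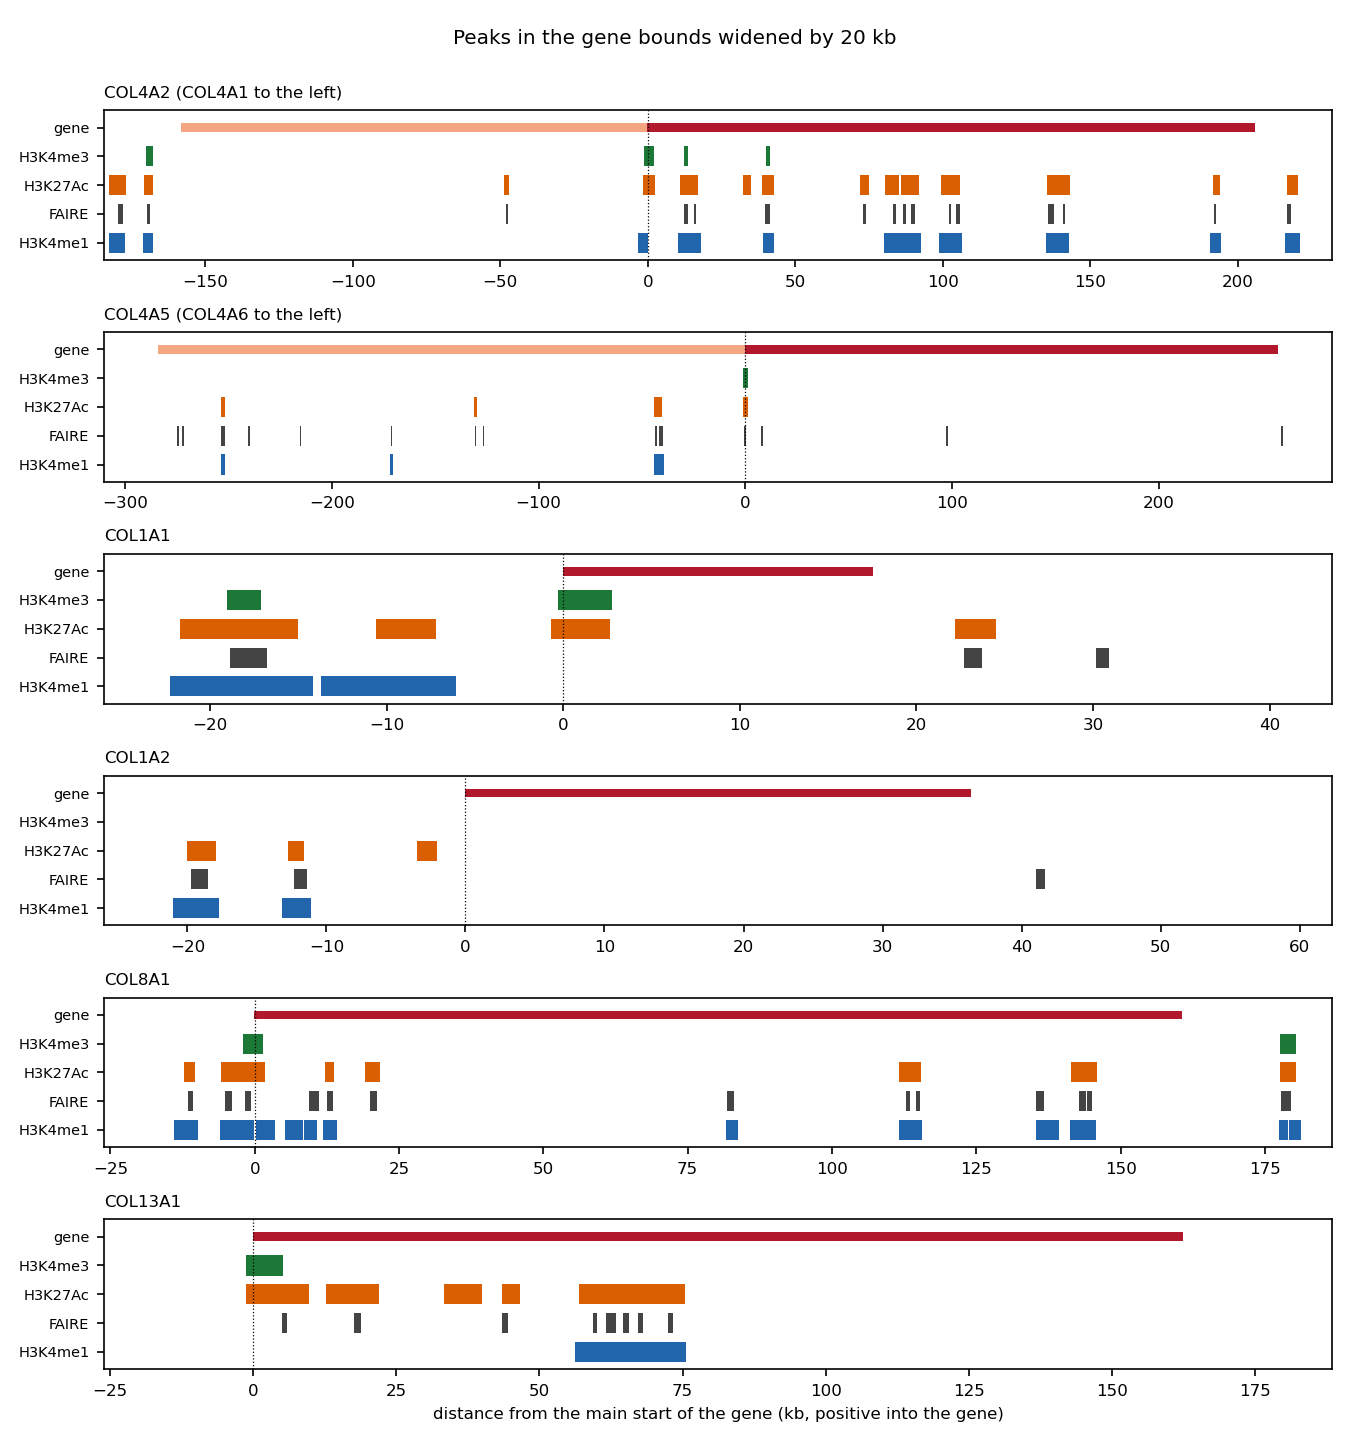
Peaks of the 4 lists (bars) in the gene bounds widened by 20 kb of COL4A2 with COL4A1, COL4A5 with COL4A6, COL1A1, COL1A2, COL8A1 and COL13A1, by distance from the main start in kb, with the gene above and the dotted line at the start. COL4A2 shows 11 H3K27Ac and 8 H3K4me1 peaks, and COL1A2 has no H3K4me3 peak and none of any list over its start.

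The fibril genes did not follow each other. COL1A1 encodes the chain of which collagen I has most, and COL1A2 its partner in the same molecule. At COL1A1, H3K4me3 (chr17:48276245-48279290, score 3100) and H3K27Ac (chr17:48276315-48279659, score 1457) covered the start, and neither FAIRE nor H3K4me1 had a promoter peak. At COL1A2 no list had a promoter peak, and the nearest H3K4me3 peak was 114090 bp from its start. Thus the called promoter peaks differed between the genes for both chains of collagen I, with no replicate error to set beside them.

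Upstream of COL1A1, 16786 bp from its start and between genes, stood a FAIRE peak of height 136.5 (chr17:48295778-48296612), within an H3K27Ac peak of score 3100 (chr17:48294001-48300686) and an H3K4me1 peak of score 618 (chr17:48293146-48301238). H3K4me3 was also called there, with a score of 58.5. In all, the widened bounds of COL1A1 held 2 H3K4me3, 4 H3K27Ac, 4 FAIRE and 2 H3K4me1 peaks, and H3K27Ac covered 24.5% of them. Upstream of COL1A2, 11417 bp from its start, a FAIRE peak of height 95.8 (chr7:94011906-94012790) was joined by H3K27Ac of score 58.4 and H3K4me1 of score 81.7 (chr7:94010984-94013085). The highest H3K27Ac score in the widened bounds of COL1A2 was 218 (chr7:94004168-94006244). COL1A2 therefore had distal peaks of the same 3 lists, with lower scores than those upstream of COL1A1.

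COL3A1, the collagen of vessel walls and skin, had 2 peaks in its widened bounds, both FAIRE. One, of height 29.5, touched the promoter of an internal start (chr2:189866528-189867410), 27429 bp from the main start. It touched no promoter of a transcript annotated as protein_coding. The other, of height 44.6, lay in an intron (chr2:189842776-189843498). No histone peak of any list was within 100 kb of its main start, and the nearest, H3K4me1, was 120236 bp away.

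COL5A2, whose product is a minor chain that helps to start fibrils, had no promoter peak but 5 H3K27Ac, 7 FAIRE and 4 H3K4me1 peaks in its widened bounds, 16 over the lists and the most among the fibril genes. With promoters of 2 kb on each side, COL5A2 would count among the genes with H3K27Ac and with H3K4me1, at its outer start. The highest was an H3K27Ac peak of score 3025 (chr2:190073702-190077260), upstream of the main start in an intron of a longer transcript. It held the tallest FAIRE peak of the locus, 84.6 high (chr2:190074537-190075393). The highest H3K4me1 score was 119 (chr2:190085856-190088639). All 4 of its distal H3K4me1 peaks shared bases with both H3K27Ac and FAIRE.

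COL5A1, the partner of COL5A2 in collagen V, had at its promoter H3K4me3 of score 3100 (chr9:137532360-137537941), 5582 bp wide, and H3K27Ac of score 3153 (chr9:137532201-137538243), 6043 bp wide. FAIRE had no peak within 1 kb of a start, and the nearest, 2638 bp into the gene, was 132.7 high. COL5A3, the remaining type V chain, had no promoter peak, and a single FAIRE peak of height 62.3 was all that its widened bounds held.

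The collagen XI genes are known from cartilage. COL11A1 had promoter peaks in all 4 lists, but they lay at different starts. Its H3K4me3 peak (chr1:103571685-103574724, score 282) covered the main start. The H3K27Ac peak (chr1:103343877-103347824, score 1007), the FAIRE peak (chr1:103343869-103345834, height 98.9) and the H3K4me1 peak (chr1:103344728-103346437, score 70.6) were at an internal start near the far end of the gene, at least 226254 bp away. With starts of protein_coding transcripts alone, COL11A1 had a promoter peak only for H3K4me3. A further FAIRE peak of height 43.2 (chr1:103571626-103572486) shared bases with the H3K4me3 peak but was 1592 bp from the main start, outside the promoter. COL11A2 had no promoter peak, and its widened bounds, with 4 H3K4me3, 4 H3K27Ac and 4 FAIRE peaks, reach into neighbouring genes. H3K4me3 peaks at the ceiling of the score were at the promoters of HSD17B8 (chr6:33171959-33173994, score 3212), of RXRB and SLC39A7, and of RING1. The highest H3K27Ac score, 2813 (chr6:33166698-33170464), was at RXRB and SLC39A7. Its tallest FAIRE peak there was 65.3 high (chr6:33168135-33169068), also at RXRB and SLC39A7.

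Among the remaining fibril genes, COL27A1 had H3K4me3 of score 3100 (chr9:116915691-116919663) and H3K27Ac of score 398 (chr9:116917234-116919571) at its promoter. Inside it, 69.0 kb from the start, an H3K27Ac peak at 3100 (chr9:116983226-116990324) shared bases with H3K4me1 of score 280 (chr9:116983108-116990574), and its tallest FAIRE peak was 91.7 high (chr9:117039545-117040443). COL24A1 had H3K4me3 of score 333 and no other promoter peak. COL2A1, the collagen of cartilage, had no peak within 1 kb of a start. An H3K4me3 peak of score 2771 ended 1131 bp from its main start, and with promoters of 2 kb on each side COL2A1 would count among the genes with H3K4me3.

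Of the other collagens, COL7A1, COL8A1, COL13A1 and COL16A1 had promoter peaks in all 4 lists. With COL11A1, 5 of the 44 collagen genes had this pattern, where the share of all genes was 13.1%. COL7A1 makes the anchoring fibrils that hold the epidermis to the dermis. At its main start stood H3K4me3 of score 573 (chr3:48631424-48633678), H3K27Ac of score 2005 (chr3:48631267-48635418), FAIRE of height 78.0 (chr3:48632617-48634088) and H3K4me1 of score 107 (chr3:48629900-48638285), the last also at the promoter of UQCRC1. Its highest H3K27Ac and H3K4me1 promoter peaks, of scores 3100 (chr3:48597171-48605306) and 154 (chr3:48590663-48605334), were at an internal start and also at the promoters of PFKFB4 and UCN2. H3K27Ac covered 28.9% and H3K4me1 32.4% of its widened bounds, the highest shares of any collagen gene for these lists.

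COL8A1, a short-chain collagen of vessel walls and of the cornea, had its promoter peaks around the main start. They were H3K4me3 (chr3:99355484-99358809, score 3100), H3K27Ac (chr3:99351669-99359236, score 3100), FAIRE (chr3:99355822-99356827, height 70.1) and H3K4me1 (chr3:99351462-99357384, score 486). With 7 H3K27Ac, 13 FAIRE and 12 H3K4me1 peaks, its widened bounds held more H3K4me1 peaks than those of any other collagen gene. An H3K27Ac peak inside the gene was also at 3100 (chr3:99469064-99472927). The tallest distal FAIRE peak was 112.3 high (chr3:99377403-99378639), and the highest distal H3K4me1 score was 486 (chr3:99498652-99503264). Its partner COL8A2 had only H3K4me3, of score 199, at the promoter.

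COL13A1, a collagen that crosses the cell membrane, had H3K4me3 (chr10:71560348-71566943, score 3100) and H3K27Ac (chr10:71560396-71571419, score 3100) over the main start. Its H3K4me1 promoter peak (chr10:71617780-71637262, score 344) was 19483 bp wide and lay over internal starts, together with H3K27Ac at 3100 (chr10:71618503-71637082), 18580 bp wide. The tallest FAIRE peak touching a promoter was 107.6 high (chr10:71634041-71635037), and a FAIRE peak 160.0 high (chr10:71623864-71624993), taller than 98.8% of the list, stood in the same intronic domain. With starts of protein_coding transcripts alone, COL13A1 had no FAIRE or H3K4me1 promoter peak. COL13A1 has 34 annotated start sites, where the median of the collagen genes is 7.5 and that of all genes 5.0. COL16A1, which binds along fibrils, had no peak over its main start. Its H3K4me1 peak of score 136 (chr1:32164329-32168831) came within 787 bp of it. The other promoter peaks of COL16A1 were at internal starts, with H3K4me3 of score 174 (chr1:32134927-32136814), H3K27Ac of score 1124 (chr1:32154249-32157450) and FAIRE of height 81.9 (chr1:32155027-32156051). With starts of protein_coding transcripts alone, COL16A1 had a promoter peak only in the H3K4me1 list. Upstream of it, 9948 bp from the start, stood a distal H3K4me3 peak of score 1054 (chr1:32179566-32182064).

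Among the other collagens, H3K4me3, H3K27Ac and FAIRE, without H3K4me1, were found at COL6A1, COL12A1 and COL19A1. With COL4A5 and COL4A6, 5 of the 44 collagen genes had this pattern, where the share of all genes was 23.5%. COL6A1 encodes a chain of the beaded filaments that surround cells. Its H3K4me3 peak (chr21:47400509-47403808) was at 3100, its H3K27Ac peak (chr21:47400444-47403123) at 664 and its FAIRE peak (chr21:47400716-47401607) was 35.1 high. COL12A1, which decorates fibrils, had H3K4me3 of score 3100 (chr6:75913615-75916725), H3K27Ac of score 1104 (chr6:75913185-75916830) and FAIRE of height 71.6 (chr6:75915531-75916473). At COL19A1 all 3 peaks also lay at the promoter of LMBRD1, its divergent neighbour, with H3K4me3 at 3100 (chr6:70576152-70578385), H3K27Ac at 98.9 (chr6:70576574-70578226) and FAIRE 38.0 high (chr6:70574881-70575781). The tallest distal FAIRE peaks of these genes were 62.7 high for COL6A1 (chr21:47394568-47395006), 83.9 for COL12A1 (chr6:75808268-75809287) and 114.7 for COL19A1 (chr6:70627614-70628540). That of COL6A1 stood in H3K27Ac (chr21:47392151-47396136) and H3K4me3 (chr21:47392123-47395926) peaks at 3100, and that of COL19A1 in an H3K27Ac and an H3K4me1 peak, the latter of score 110.

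COL17A1 and COL21A1 had H3K27Ac, FAIRE and H3K4me1 promoter peaks without H3K4me3. In both the peaks were at internal starts, and none touched the promoter of a protein_coding transcript. COL17A1, a transmembrane collagen of the hemidesmosome of epithelial cells, had them at least 29188 bp into the gene, with H3K27Ac of score 1315 (chr10:105812350-105816278), FAIRE of height 100.7 (chr10:105813634-105814768) and H3K4me1 of score 517 (chr10:105807083-105816450). The highest H3K27Ac score of COL17A1, 1867, was upstream of the gene (chr10:105851779-105855187). The tallest distal FAIRE peak of COL17A1 was 116.1 high (chr10:105808905-105809694). At COL21A1, which also associates with fibrils, the promoter peaks lay at least 154920 bp from the main start, with H3K27Ac of score 425 (chr6:55955356-55957458), FAIRE of height 76.2 (chr6:55955741-55956371) and H3K4me1 of score 144 (chr6:55955323-55957447). COL21A1 had 5 H3K27Ac, 12 FAIRE and 10 H3K4me1 peaks in its widened bounds and no H3K4me3 peak. Its highest distal H3K27Ac and H3K4me1 scores were 1755 (chr6:56233934-56236949) and 314 (chr6:56232898-56237163), and its tallest FAIRE peak was 147.6 high (chr6:55965397-55966515).

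Promoter peaks in fewer lists were found at 8 more of the other collagens. COL18A1, the source of the fragment endostatin, had H3K4me3 and H3K27Ac over its main start. COL9A2 had H3K4me3 over its main start and H3K27Ac at another start, 10495 bp away. That H3K27Ac peak touched no promoter of a protein_coding transcript. COL14A1 had H3K4me3 575 bp and H3K4me1 221124 bp from its main start, and COL28A1 had H3K27Ac and H3K4me1 together at an internal start. COL6A2 and COL8A2 had H3K4me3 alone, and COL15A1 and COL25A1 had H3K4me1 alone. In the last pair the H3K4me1 peaks scored 109 and 128 and lay 94519 bp and 467323 bp from the main starts. COL6A1 and COL6A2, which pair in collagen VI with COL6A3, both had H3K4me3 at 3100, whereas COL6A3 had no promoter peak.

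The 15 collagen genes without a promoter peak in any list were COL1A2, COL2A1, COL5A2, COL5A3, COL11A2, COL6A3, COL6A5, COL6A6, COL9A1, COL9A3, COL10A1, COL20A1, COL22A1, COL23A1 and COL26A1. COL10A1, known from the growth plate, is among them, as are COL9A1 and COL9A3 of cartilage. COL22A1, COL26A1, COL6A5 and COL6A6 had no peak even in the gene bounds widened by 20 kb, 4 genes or 9.09% of the collagens, where 12.8% of all genes had none. COL9A1 had 1 FAIRE peak and 1 H3K4me1 peak in these bounds. The FAIRE peak, between genes 8705 bp from its start, was 175.1 high, the tallest near any collagen gene, and no H3K27Ac peak was in these bounds. Near COL6A3, H3K4me1 reached 712, upstream and 13594 bp from the main start, with H3K27Ac at 751. The highest H3K4me3 and H3K27Ac peaks in the bounds of COL10A1, COL20A1, COL23A1 and COL9A3 were at promoters of neighbouring genes.

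H3K4me1 without H3K4me3 at promoters was found at 5 collagen genes, COL15A1, COL17A1, COL21A1, COL25A1 and COL28A1, all of them other collagens, or 11.4%. Over all protein-coding genes this share was 2.03%. All 5 of these H3K4me1 peaks lay far inside the genes, at internal start sites. Of them, only that of COL28A1 touched the promoter of a protein_coding transcript. With the main start alone, 1 collagen gene had H3K4me1 without H3K4me3, or 2.27%, against 1.29% of all genes. That gene was COL16A1.

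Where the promoter peaks stood mattered for the counts, by share most for FAIRE and H3K4me1. Of the genes with a promoter peak, 22 of 23 for H3K4me3 and 16 of 22 for H3K27Ac had one within 1 kb of the main start, but only 7 of 13 for FAIRE and 5 of 13 for H3K4me1. With the main start alone, H3K27Ac was at 36.4% of collagen genes and 59.5% of all genes. FAIRE was then at 15.9% and 31.4%, and H3K4me1 at 11.4% and 12.3%. The higher share of H3K4me1 at collagen promoters was thus not present at main starts. Collagen genes are long, with a median length of 145 kb against 27.3 kb for all genes, and the part of length and of the number of start sites in these counts was not tested.

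CpG content at the main start was compared next, as the observed over the expected number of CpG dinucleotides in the 300 bases described above. The collagen genes had a median ratio of 0.635, and all genes 0.773. The 23 collagen genes with H3K4me3 had a median of 0.701 and the 21 without it 0.510. Over all genes these medians were 0.854 and 0.307, so the collagen medians lay between them on both sides. Examples without H3K4me3 but with a high ratio were COL25A1 (1.10), COL15A1 (1.08) and COL9A3 (0.961). By class the medians were 0.496 for fibril, 0.745 for basement membrane and 0.635 for other collagens. A TATA box was found at 8 collagen genes (18.2%), a GC box at 28 (63.6%) and a CCAAT box at 14 (31.8%), beside the shares of all promoters given with the sequences.

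**Figure D4:**
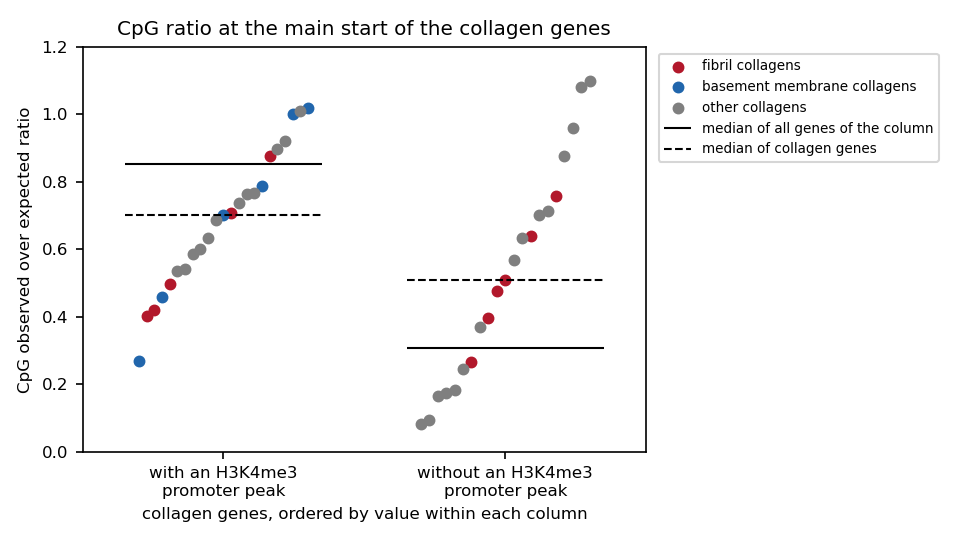
CpG observed over expected ratio in the 300 bases at the main start of each collagen gene (points, coloured by class), in genes with and without an H3K4me3 promoter peak; dashed lines are medians of the collagen genes (0.701 and 0.510) and solid lines medians of all protein-coding genes (0.854 and 0.307). Points of both columns span most of the axis and overlap.

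In the gene bounds widened by 20 kb, 30 collagen genes had an H3K4me3 peak (all genes, 79.0%), 37 an H3K27Ac peak (all genes, 80.1%), 36 a FAIRE peak (all genes, 74.1%) and 25 an H3K4me1 peak (all genes, 48.6%). These windows had a median of 185 kb for the collagens and 67.3 kb for all genes, so equal counts would mean fewer peaks per length. Per 100 kb of window, the median collagen gene had 0.441 H3K4me3, 1.41 H3K27Ac, 1.73 FAIRE and 0.461 H3K4me1 peaks. The medians over all genes were 1.59, 2.21, 2 and 0. H3K27Ac covered a median of 3.88% of the collagen windows and 6.35% of those of all genes, and FAIRE 1.75% and 1.74%.

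Many of these peaks were away from every protein-coding promoter. The widened bounds of the collagens held 48 distinct H3K4me3, 114 H3K27Ac, 172 FAIRE and 85 H3K4me1 peaks. Of these, 10, 75, 148 and 68 were distal, in the same order. As a share of the peaks, 20.8% of H3K4me3, 65.8% of H3K27Ac, 86.0% of FAIRE and 80.0% of H3K4me1 were distal, where the complete lists had 28.9%, 64.2%, 80.6% and 82.3%. The 10 distal H3K4me3 peaks near collagens had a median score of 587, and all distal H3K4me3 peaks 255. Distal H3K27Ac peaks near collagens had a median score of 379, and all distal H3K27Ac peaks 362. For distal H3K4me1 peaks the median scores were 107 and 116, and for distal FAIRE peaks the median heights were 59.8 and 60.5.

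The 68 distal H3K4me1 peaks were divided by what else covered them. Both H3K27Ac and FAIRE shared bases with 43 of them (63.2%), H3K27Ac alone with 5, FAIRE alone with 11 and neither with 9 (13.2%). Over all 22036 distal H3K4me1 peaks, 59.7% had both and 15.6% had neither. Near fibril genes, 12 of 13 had both, and near basement membrane genes also 12 of 13. Near other collagens 19 of 42 had both (45.2%) and 9 had neither. All 9 peaks with neither mark lay near COL8A1, COL18A1, COL19A1, COL21A1, COL25A1 and COL28A1, with 3 of them at COL21A1 and 2 at COL25A1. Peaks in 1 locus are not independent of each other, and at COL4A2 alone 7 of 7 had both.

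**Figure D5:**
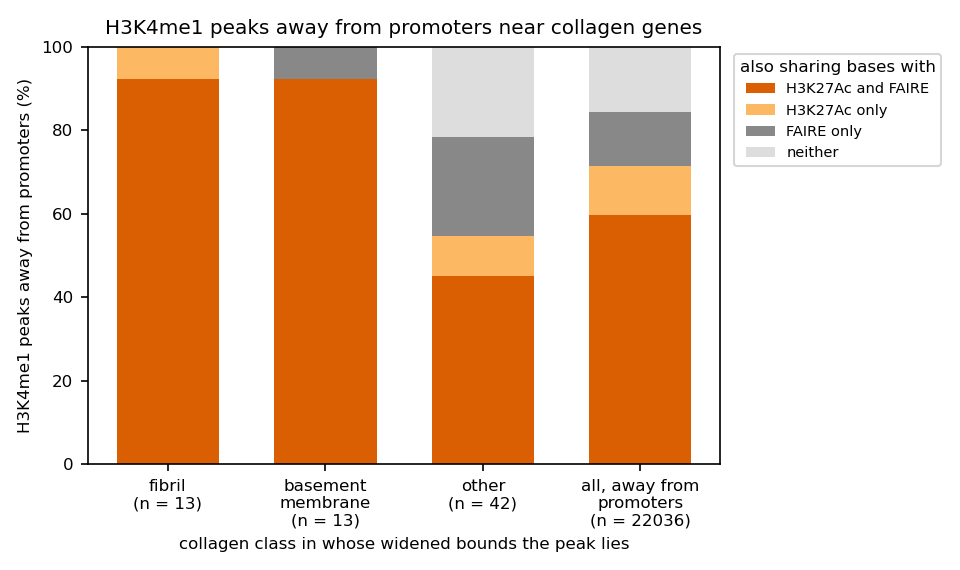
Distal H3K4me1 peaks in the widened bounds of fibril (n = 13), basement membrane (n = 13) and other collagen genes (n = 42), and all 22036 distal H3K4me1 peaks, by whether they also share bases with H3K27Ac and FAIRE peaks. Both are present at 92.3% of the peaks of the first 2 classes, 45.2% near other collagens and 59.7% over the whole list.

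The central 300 bases of 3 tall distal FAIRE peaks in introns of the genes described in full are shown, to show what lies under high FAIRE signal near these genes. They are given on the plus strand at chr10:71624279-71624578, chr6:55965807-55966106 and chr13:111049362-111049661. Capitals mark the letters TGANTCA, the binding letters of AP-1, which read the same on both strands and can share 1 base with a CCAAT box.
COL13A1: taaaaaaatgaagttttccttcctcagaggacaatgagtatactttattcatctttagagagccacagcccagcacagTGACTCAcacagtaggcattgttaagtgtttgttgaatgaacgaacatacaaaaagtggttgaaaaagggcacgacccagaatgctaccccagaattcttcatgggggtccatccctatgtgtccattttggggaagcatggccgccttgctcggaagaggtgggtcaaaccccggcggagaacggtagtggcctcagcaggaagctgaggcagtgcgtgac
COL21A1: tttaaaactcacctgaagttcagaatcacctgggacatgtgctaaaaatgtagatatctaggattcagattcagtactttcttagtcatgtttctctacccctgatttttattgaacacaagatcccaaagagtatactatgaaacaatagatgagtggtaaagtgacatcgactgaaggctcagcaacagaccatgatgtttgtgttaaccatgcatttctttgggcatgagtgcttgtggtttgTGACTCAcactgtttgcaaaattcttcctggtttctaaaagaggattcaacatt
COL4A2: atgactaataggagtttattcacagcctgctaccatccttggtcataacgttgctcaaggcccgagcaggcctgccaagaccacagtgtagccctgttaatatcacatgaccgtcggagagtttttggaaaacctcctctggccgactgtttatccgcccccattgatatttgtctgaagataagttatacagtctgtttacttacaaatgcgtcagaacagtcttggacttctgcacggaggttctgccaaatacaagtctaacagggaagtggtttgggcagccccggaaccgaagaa

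The COL13A1 and COL21A1 sequences held the AP-1 letters once each, and the COL4A2 sequence did not hold them. Among the 148 distal FAIRE peaks near collagens, 59 held these letters in their central 300 bases (39.9%), against 43.7% of all 37513 distal FAIRE peaks. Their median height was 67.2 with the letters and 54.4 without. Over all distal FAIRE peaks these medians were 63.6 and 58.4. At the main starts of genes the letters were in 5.43% of the 300-base windows, and COL6A1 was the only collagen gene with them.

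Genes that work on collagen chains were counted from lists drawn up by function. Of 18 genes for modification and folding, all 18 had an H3K4me3 promoter peak, 16 H3K27Ac, 13 FAIRE and 4 H3K4me1. Over all protein-coding genes, for this and the lists below, the shares were 67.3%, 63.5%, 39.3% and 20%, in the same order. They include the hydroxylase genes P4HA1, P4HA2 and PLOD2 and the chaperone gene SERPINH1, each with H3K4me3 at 3100, and their H3K27Ac scores were 2800, 3100, 2445 and 3100. The exceptions for H3K27Ac were P4HA3, with H3K4me3 of score 113, and P3H3.

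Of 14 genes for processing and crosslinking, 12 had H3K4me3, 11 H3K27Ac, 7 FAIRE and 6 H3K4me1. The crosslinking oxidase LOX had H3K4me3 at 3100 and H3K27Ac at 2585. ADAMTS2, the protease that trims the end of procollagen I, had no promoter peak. SPARC, a collagen-binding matrix protein, had H3K27Ac of score 382, FAIRE and H3K4me1 without H3K4me3. Of 10 collagen receptor genes, 6 had H3K4me3, 6 H3K27Ac, 4 FAIRE and 4 H3K4me1. Among them were the integrin genes ITGA1, ITGA2 and ITGB1 with peaks in all 4 lists. Among the discoidin receptors, DDR1 had H3K4me3 at 3100 and DDR2 had no promoter peak. ITGA11 had H3K4me1 alone, with a score of 52.2, and GP6 and LAIR1, receptors of blood cells, had none.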

How the data were processed

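MDAMB231 peak lists of 3 histone marks and FAIRE were used, 1 list for each assay from 2 combined samples. The authors aligned reads to GRCh37 (hg19) with BWA, leaving out duplicates and reads that mapped poorly. They called histone peaks with MACS against input, and FAIRE peaks with FindPeaks. As deposited, the score of each histone peak equals −10·log10 of the MACS p-value. For FAIRE the authors gave the height of the signal in a peak, with no scaling stated. Read depth was not used here, and depth limits which weak peaks were called.

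Members, classes and gene lists were chosen with earlier results of these data known. Starts and gene bounds came from GENCODE v44lift37. A main start was that of the Ensembl canonical transcript. Overlap meant at least 1 shared base, computed with numpy 2.4.6 and pandas 2.3.3 in python 3.11.15. The overlap code was compared with bedtools 2.31.1 (3000 simulated intervals, 0 different results). No peak ended beyond its chromosome in GRCh37. Figures used matplotlib 3.10.9. Sequences were read from GRCh37 by coordinates, and printed promoters stop at most 30 bases past the start they are placed by. A distal peak touched no promoter of a protein-coding gene.

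Full values were given for COL1A1, COL1A2, COL3A1, the type IV genes, genes with promoter peaks in at least 3 lists, and the 2 fibril and 2 other collagens with most peaks in the widened bounds, with ties kept. COL5A1, COL9A1 and other genes were described after their values were seen. Counts were described beside all protein-coding genes and no test was made.

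The alternatives were promoters of 500 bp or 2 kb, the peak centre in place of any base, stricter peaks (score of at least 100, FAIRE height at or above 61.1), protein_coding transcripts or main starts alone, gene bounds with no flank or 50 kb, peaks at other promoters left out, and other sequence windows. Leaving out promoter peaks shared with other genes was added after seeing the data.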

Additional observations from a re-analysis of the deposited data

How the results depend on the processing

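Over 17 results, 82 comparisons with an alternative setting were made, and 70 stayed within 1.5 times the value reported. With the main start alone, the collagen genes with a promoter peak were 7 for FAIRE, 5 for H3K4me1 and 1 for H3K4me1 without H3K4me3. With starts of protein_coding transcripts, these counts were 7, 7 and 2 (15.9%, 15.9% and 4.55%), where all genes had 35.5%, 16.4% and 1.6%. With the peak centre inside the promoter, H3K4me1 was at 4 genes (9.09%, all genes 8.64%) and H3K4me1 without H3K4me3 at 1 (2.27%, all genes 1.26%). The higher share of H3K4me1 at collagen promoters was thus small or absent in these settings. It was present with stricter peaks (22.7%, all genes 11.2%) and with promoters of 500 bp (25%, all genes 17.8%) or 2 kb (31.8%, all genes 22.3%). The lower share of FAIRE was nearly absent with stricter peaks (22.7%, all genes 24.4%). Main starts and protein_coding transcripts leave out some starts, and the peak centre leaves out peaks centred elsewhere, broad peaks over a start among them. The genes without a peak in the widened bounds were 9 with the gene bounds alone (20.5%, all genes 23.4%) and 2 with 50 kb on each side (4.55%, all genes 7.57%), as the windows shrink or grow. With stricter peaks, 40 distal H3K4me1 peaks remained near collagens, since low-scoring peaks are removed. Of these, 45.0% shared bases with both H3K27Ac and FAIRE, against 63.2% in the main setting. The share with neither was 10%, against 13.2% in the main setting. The stricter setting also removes H3K27Ac and FAIRE peaks, which by itself can only lower the sharing. No share over all distal H3K4me1 peaks is given for it, so the drop is not read as a property of collagen loci. In the central 150 bases, a shorter window, 19.6% of distal FAIRE peaks near collagens held the AP-1 letters, against 26% of all distal FAIRE peaks. In an alternative chosen after seeing the data, promoter peaks shared with a gene that is not a collagen were left out, and COL19A1 then lost its H3K4me3, H3K27Ac and FAIRE peaks and COL7A1 its H3K4me1 peak. No paired analysis was possible because the lists hold combined samples, and no sample could be left out. Scores at the ceiling of 3100 cannot be ranked. A gene without a peak may still carry a mark below the threshold of the peak caller. The lists carry no read depth per peak, no strand and no gene assignment, and a distal peak in the bounds of a gene need not act on it.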
